A study of Homo sapiens with 8 samples.

Results

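Myosins, actins and the proteins that bind actin filaments were examined in RNA sequencing libraries of the human cell line hCMEC/D3, which was immortalised from the endothelium of small brain vessels and stands in for the blood-brain barrier in culture. The genes were chosen by symbol: genes with a numbered MYO, MYH or MYL symbol (myosins and their light chains), the 4 tropomyosins and 17 listed genes for actins, cofilins, profilins, alpha-actinins, filamins, spectrins, moesin, ezrin, radixin, caldesmon and myosin light chain kinase. This gave 73 of the 23346 genes measured. The 8 libraries of polyadenylated RNA are replicates of the same line, with no treatment named in the labels, and form 1 group, so there is no comparison between conditions. The labels do not say whether the replicates came from separate cultures, so p-values measure only the spread between these libraries, which may be technical.

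Actin monomers assemble into filaments that carry the cell cortex and the stress fibres of endothelial cells. Non-muscle myosin II, built from heavy chains and 2 kinds of light chain, pulls on these filaments once its regulatory light chain is phosphorylated, and tropomyosins lie along the filaments and set which proteins may bind. In endothelium this machinery holds tension against the cell junctions, while unconventional myosins carry membranes and cargo along the filaments.

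Libraries held 69388544 to 90205244 counts. Every count in the table was even, so counting error was taken from halved counts, called read pairs, of which a library held 34694272 to 45102622. Levels within a gene are given as CPM, counts scaled to the library size with TMM factors, and levels between genes as RPKM, which is CPM per kilobase of the canonical transcript. Replicates 2, 7 and 8 stood apart from the other libraries, with short transcripts tending to be high and long transcripts low, least clearly in replicate 7. Over the 49 genes detected, the median coefficient of variation was 22.1% in all 8 libraries and 6.49% in the 5 libraries without replicates 2, 7 and 8. The same medians over all 11980 detected genes were 19.2% and 6.96%. The 8 markers of endothelial cells that were checked were all detected, with a summed level of 3048 to 4803 CPM, and 0 of 5 epithelial markers were detected.

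Of the 73 genes, 49 (67.1%) reached 1 CPM in every library, against a background of 51.3% of all genes listed. All 17 listed genes were among the 49. Together the 73 genes took 2.79% ± 0.176 (SD, n = 8) of the counts, with the lowest share in replicate 3 at 2.56% (95% Wilson interval 2.557 to 2.567%) and the highest in replicate 7 at 3.05% (3.048 to 3.058%). These intervals cover counting error only. Replicates 2, 7 and 8 held the 3 highest shares, and the other 5 ranged from 2.56% to 2.75%.

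**Figure D1:**
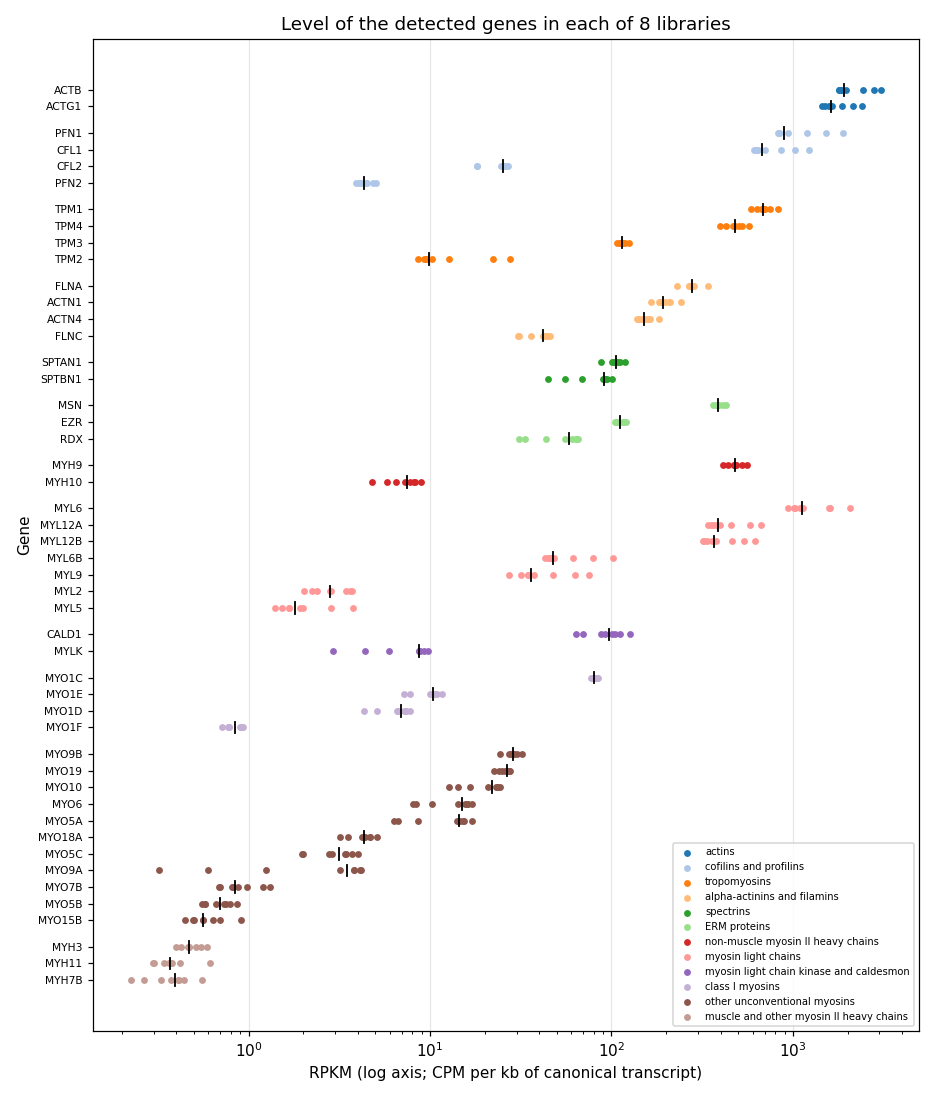
RPKM (log axis) of detected genes in each library, grouped by role; points are single libraries and black ticks are medians. Beta-actin was highest with a mean of 2188 RPKM, and MYH7B was lowest with a mean of 0.376 RPKM.

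The cytoplasmic actins were the most abundant of these transcripts. ACTB, beta-actin (chromosome 7, 5566779 to 5570232 in GRCh37, minus strand, 6 exons), had 2188 ± 514 RPKM (SD, n = 8) and ranked 6 of 11636 detected genes with a known length. ACTG1, gamma-actin (chromosome 17, 79476997 to 79479892, minus strand, 6 exons), had 1776 ± 339 RPKM and ranked 11. In replicates 1 to 8 the level of ACTB was 3358, 5091, 3234, 3242, 3533, 3278, 4439 and 5542 CPM. Both genes were highest in replicate 8, next in replicate 2 and then in replicate 7, with no overlap between these 3 libraries and the other 5. ACTG1 was at 3047, 4113, 2774, 2895, 3159, 3082, 3570 and 4626 CPM in the same order. The 2 actins together took 0.736% ± 0.146 of the counts, from 0.604% in replicate 3 to 0.977% in replicate 8. ACTB exceeded ACTG1 in 8 of 8 libraries, by 0.29 ± 0.08 on the log2 RPKM scale (SD), which is 1.22-fold.

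The paralogs compared here were tested in 18 pairs, as the log2 ratio of RPKM + 0.1 within each library, and judged by flipping the signs of the 8 ratios in every way (exact permutation test, two-sided). A pair with the same direction in all 8 libraries has an exact p of 0.00781, the smallest that 8 libraries allow, and an adjusted p of 0.00827 over the 18 pairs. All 18 pairs passed the threshold of 0.05, 17 of them at that smallest p. The test asks only whether the genes of a pair differed steadily across replicates of the same line. No share was taken for other gene pairs, so the count that passed shows nothing particular to these paralogs. A pass does not settle the order of a pair. TPM1 over TPM4 passed per transcript, and in the opposite direction per merged exon length (exact permutation, adjusted p = 0.00827 and 0.00879). The ratio compares genes that differ in length and sequence, so its size depends on the transcript taken for each gene. In 4 pairs, named below, the direction or the call did not hold on another scale. The ACTB to ACTG1 ratio was positive per transcript, per merged exon length (0.09), on CPM (0.21) and in the authors' CQN values (0.16). The CQN values were 12.02 or 12.13 for ACTB and 11.86 or 11.93 for ACTG1 in every library, so the CQN ratio is coarse and adds little.

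Some reads of the 2 actins may be hard to assign, since their coding sequences are identical at 1027 of 1125 bases (91.3%). They share runs of up to 59 bases. How many reads this touches was not examined. The first 60 coding bases are shown because the proteins are known to differ near their start. Capitals mark the 10 positions at which they differ.
ACTB (chr7:5569229-5569288 in GRCh37, minus strand): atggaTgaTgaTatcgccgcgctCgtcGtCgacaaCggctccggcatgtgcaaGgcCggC
ACTG1 (chr17:79479321-79479380 in GRCh37, minus strand): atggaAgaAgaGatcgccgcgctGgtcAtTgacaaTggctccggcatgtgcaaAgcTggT
Counted from 1 at the A of the start codon, with the ACTB base first, the differences are T6A, T9A, T12G, C24G, G28A, C30T, C36T, G54A, C57T and C60T. The annotation used here (GENCODE 44 lifted to GRCh37) also names 12 pseudogenes of ACTB and 21 of ACTG1. How reads shared with them were counted is not given in the sources used here, so both levels are uncertain to that extent.

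The muscle actins were far lower. ACTA2, smooth muscle alpha-actin, was the only 1 of 4 detected, at 4.74 ± 1.80 CPM and 3.51 RPKM. It ranged from 3.16 CPM in replicate 5 to 7.80 CPM in replicate 2. ACTC1 and ACTG2 of cardiac and enteric smooth muscle and ACTA1 of skeletal muscle had mean levels of 1.08, 0.668 and 0.139 CPM and fell short of 1 CPM in at least 1 library.

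Cofilin severs old filaments and profilin loads monomers for growth. CFL1 far exceeded CFL2, and PFN1 far exceeded PFN2. PFN1 (chromosome 17, 4848947 to 4851825) reached 1112 ± 397 RPKM and CFL1 (chromosome 11, 65622285 to 65625804) 790 ± 227 RPKM. CFL2, the cofilin of muscle, had 23.8 ± 3.60 RPKM, and PFN2, a profilin of neurons, 4.39 ± 0.391 RPKM. CFL1 made up 96.8% of the summed level of CFL1 and CFL2 per canonical transcript and 88.2% per merged exon length. PFN1 made up 99.6% of the summed level of PFN1 and PFN2. DSTN, a gene of the cofilin family outside the set, had 136 ± 11.4 RPKM and is not in these shares. CFL1 exceeded CFL2 by 5.02 ± 0.60 (log2) and PFN1 exceeded PFN2 by 7.89 ± 0.39, each in 8 of 8 libraries (exact permutation p = 0.00781). Per merged exon length the CFL1 to CFL2 ratio was 2.98.

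CFL1 and PFN1 followed the libraries as the actins did. The lowest, median and highest levels of CFL1 were 759, 838 and 1525 CPM, with replicates 8, 2 and 7 on top. PFN1 had 670, 721 and 1524 CPM, in the same order at the top. The 5 other libraries lay between 670 and 763 CPM for PFN1, below all of these 3. CFL2, of a longer transcript, instead was lowest in replicate 8 at 78.04 CPM, with a median of 108 and a highest level of 115 CPM. PFN2 kept between 7.96 and 10.3 CPM, with a median of 8.84.

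Among the motors of contraction, MYH9 stood out. MYH9, the heavy chain of non-muscle myosin IIA (chromosome 22, 36677323 to 36784063, minus strand, 41 exons), had 481 ± 45.8 RPKM. MYH10, the heavy chain of myosin IIB, had 7.18 ± 1.40 RPKM, and MYH14, that of myosin IIC, was not detected at a mean of 0.488 CPM. MYH9 therefore held 98.5% ± 0.267 of the non-muscle heavy chain level, and it exceeded MYH10 by 6.07 ± 0.28 (log2), or 67.0-fold, in 8 of 8 libraries (exact permutation p = 0.00781). MYH9 was at 3911, 3599, 3262, 3534, 3534, 3614, 4147 and 3054 CPM in replicates 1 to 8. It was lowest in replicate 8 and highest in replicate 7, so replicates 2, 7 and 8 did not lie together. MYH10 ran from 37.1 CPM in replicate 8 through a median of 57.8 to 68.7 CPM in replicate 1.

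Of the 12 other conventional heavy chains, 3 were detected and all were low. MYH3, the embryonic skeletal heavy chain, had a mean of 2.92 CPM, with a lowest, median and highest level of 2.41, 2.84 and 3.55 CPM. MYH11, the smooth muscle heavy chain, had 2.05, 2.53 and 4.23 CPM. MYH7B, a slow-type heavy chain, had 1.47, 2.57 and 3.64 CPM. Their mean levels per length, from 0.376 to 0.484 RPKM, were the 3 lowest of the detected genes of the set. MYH11 overlaps NDE1 and several miRNA genes, and MYH7B overlaps TRPC4AP and 2 miRNA genes, so part of their reads may be shared. The 9 undetected heavy chains were MYH15, MYH7, MYH16, MYH6, MYH2, MYH8, MYH4, MYH13 and MYH1, with means from 0 to 0.291 CPM. MYH1 had 0 counts in all 8 libraries, which allows up to 0.0865 CPM in the shallowest library (3 read pairs).

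Markers of muscle were low beside these genes. Of 6 smooth muscle markers 4 were detected (LMOD1, ACTA2, CNN1 and MYH11), with a summed level of 11.8 to 26.8 CPM, while DES and MYOCD had means of 0.180 and 0.0107 CPM. Of 8 skeletal and cardiac markers only TTN was detected. Whether a few cells with much of such RNA or many cells with little gave these levels cannot be told apart in bulk RNA. TAGLN and SMTN, which are shared with endothelial and other cultured cells, were higher per length, at 56.6 and 30.9 RPKM against 3.51 RPKM for ACTA2.

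Of the 12 light chains 7 were detected, and the highest were those of non-muscle myosin. MYL6, the essential light chain of non-muscle and smooth muscle myosin (chromosome 12, 56552045 to 56555366, plus strand), had 1307 ± 393 RPKM and the rank of 20 among detected genes. The regulatory light chains MYL12A and MYL12B, neighbours on chromosome 18, had 441 ± 120 and 416 ± 111 RPKM, and MYL9 had 43.95 ± 16.8 RPKM. MYL6B, the gene next to MYL6, had 59.0 ± 21.3 RPKM. MYL2, the ventricular regulatory chain, and MYL5, which overlaps MFSD7, were close to the detection limit at 2.26 and 1.97 CPM. The undetected chains were MYL4, MYL10, MYL7, MYL3 and MYL1, with means from 0.0155 to 0.451 CPM.

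Per canonical transcript the 3 regulatory chains divided the level into 49.0% for MYL12A, 46.2% for MYL12B and 4.77% for MYL9. The share of MYL9 was 9.25% per merged exon length and 11.7% on CPM. MYL9 was below MYL12A in 8 of 8 libraries, with a log2 ratio of -3.36 ± 0.20 (exact permutation p = 0.00781). Per merged exon length that ratio was -1.71. MYL12A and MYL12B could not be ordered. The ratio of MYL12A to MYL12B was 0.08 ± 0.08 per transcript and positive in 6 of 8 libraries (exact permutation p = 0.0469, adjusted p = 0.0469), but -0.20 on CPM, -0.20 in the CQN values and -0.999 per merged exon length. The coding sequences of these 2 genes are 95.2% identical, with a shared run of 77 bases, so the split of their reads is uncertain. MYL6 exceeded MYL6B by 4.49 ± 0.13 in 8 of 8 libraries (exact permutation p = 0.00781).

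The 5 light chains of non-muscle myosin were high in the same libraries. MYL6 had a lowest, median and highest level of 669, 793 and 1454 CPM. MYL12A had 326, 369 and 639 CPM, MYL12B 374, 427 and 716 CPM. All 3 were highest in replicate 8, and so were MYL9 and MYL6B. MYL9 was at 104, 175, 76.4, 88.0, 97.1, 96.3, 133 and 209 CPM in replicates 1 to 8. MYL6B ran from 35.8 CPM through 39.3 to 84.5 CPM.

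MYLK, the kinase that phosphorylates the regulatory light chain, went the other way. MYLK (chromosome 3, 123331143 to 123603149, minus strand, 34 exons) was at 99.0, 44.1, 88.2, 94.1, 89.5, 88.3, 60.1 and 29.4 CPM in replicates 1 to 8. Replicates 8, 2 and 7 were lowest and did not overlap the other 5, which ranged from 88.2 to 99.0 CPM. Its transcript is 10113 nucleotides long and its mean was 7.32 ± 2.58 RPKM. CALD1, caldesmon, which blocks myosin from actin, had 94.6 ± 20.9 RPKM, with a lowest, median and highest level of 321, 484 and 633 CPM. MYLK-AS1 overlaps MYLK, and without the use of strand reads of the 2 genes cannot be told apart.

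Of the tropomyosins, TPM1 and TPM4 were the higher and TPM2 by far the lowest. Per canonical transcript TPM1 took 53.2% of their level, TPM4 36.9%, TPM3 8.84% and TPM2 1.06%. Per merged exon length TPM4 led with 45.3%, then TPM1 with 27.0%, TPM3 with 25.3% and TPM2 with 2.44%. The order of TPM1 and TPM4 therefore depended on the length: the log2 ratio of TPM1 to TPM4 was 0.53 ± 0.16 per transcript (exact permutation p = 0.00781), -0.74 per merged exon length, -0.50 on CPM and -0.57 in the CQN values. TPM1 exceeded TPM2 by 5.78 ± 0.61 and the log2 ratio of TPM3 to TPM4 was -2.06 ± 0.14, each with 1 direction in 8 of 8 libraries (exact permutation p = 0.00781). These 2 orders held on every scale tried.

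The 4 tropomyosins also differed in how they followed the libraries. TPM2 (chromosome 9, 35681990 to 35690053, minus strand, 9 exons) was at 12.2, 26.4, 10.2, 11.1, 11.3, 11.3, 15.2 and 32.8 CPM in replicates 1 to 8. The 3 libraries that stood apart were the 3 highest. TPM3 kept between 761 and 880 CPM, with a median of 805 and a coefficient of variation of 4.54%. The authors' CQN values gave TPM3 another picture, with 9.94, 9.84 and 10.09 (log2) in replicates 2, 7 and 8 against 9.03 to 9.26 in the other 5. TPM1 had a lowest, median and highest level of 711, 837 and 1010 CPM and TPM4 of 984, 1184 and 1416 CPM, both highest in replicate 7.

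Filamins and alpha-actinins bundle filaments and tie them to membranes. FLNA, filamin A (chromosome X, 153576900 to 153603006), had 277.9 ± 30.3 RPKM and ran from 1962 CPM in replicate 8 through 2353 to 2899 CPM in replicate 7. FLNC, the filamin of muscle, had 39.5 ± 6.19 RPKM and 280, 385 and 422 CPM. FLNA exceeded FLNC by 2.82 ± 0.17 in 8 of 8 libraries (exact permutation p = 0.00781). The alpha-actinins, which cross-link stress fibres, had 197 ± 22.9 RPKM for ACTN1 and 154 ± 14.3 RPKM for ACTN4. Their levels were 612, 720 and 898 CPM for ACTN1 and 691, 759 and 912 CPM for ACTN4. Their log2 ratio was 0.35 ± 0.14 per transcript (exact permutation p = 0.00781) but -0.07 on CPM, -0.04 in the CQN values and -1.30 per merged exon length, so they could not be ordered.

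The ERM proteins, which link filaments to the plasma membrane, were led by moesin. Per canonical transcript MSN had 391 ± 21.2 RPKM and 70.5% of their level, EZR (ezrin) 112 ± 6.00 RPKM and 20.2%. RDX (radixin) had 52.1 ± 14.1 RPKM and 9.29%. Per merged exon length the shares were 51.0% for MSN, 39.1% for EZR and 9.98% for RDX. MSN exceeded EZR by 1.80 ± 0.05 and EZR exceeded RDX by 1.16 ± 0.41, each in 8 of 8 libraries (exact permutation p = 0.00781). Per merged exon length these ratios were 0.38 and 2.00. MSN had 1440, 1525 and 1703 CPM and EZR 321, 342 and 366 CPM as lowest, median and highest levels. RDX varied more, from 135 CPM in replicate 8 and 147 CPM in replicate 2 to 287 CPM in replicate 1.

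The spectrins form the lattice under the membrane as paired alpha and beta chains. SPTAN1, the alpha chain, had 105 ± 9.14 RPKM and SPTBN1, a beta chain, 79.9 ± 20.8 RPKM. SPTBN1 was at 1030, 565, 943, 967, 919, 940, 707 and 455 CPM in replicates 1 to 8, lowest in the 3 libraries that stood apart. SPTAN1 kept between 690 and 938 CPM, with a median of 830. Their log2 ratio was 0.44 ± 0.43 (exact permutation p = 0.00781). It was 1.01 and 1.24 in replicates 2 and 8 and at most 0.34 in the other 6. On CPM the ratio was 0.07 (exact permutation, adjusted p = 0.625) and per merged exon length 0.23 (adjusted p = 0.242), so the order of the chains was not resolved there.

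**Figure D2:**
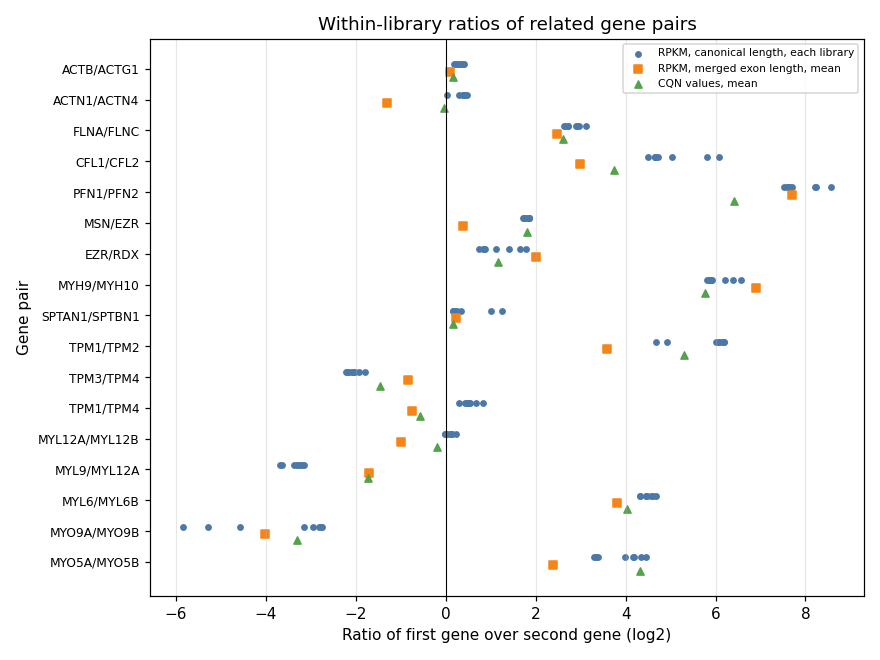
Log2 ratio of RPKM + 0.1 for paralog pairs in each library (points), with the mean per merged exon length (squares) and the mean difference of CQN values (triangles). PFN1 over PFN2 lies farthest to the right at a mean of 7.89, and MYL12A over MYL12B lies at 0.08, next to 0.

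The unconventional myosins were lower and more mixed. The class I myosins are single-headed motors that bind membranes. MYO1C had 80.9 ± 2.39 RPKM and 70.1% of the class I level, MYO1E 9.89 ± 1.58 RPKM and MYO1D 6.54 ± 1.201 RPKM. MYO1F, known from blood cells, had 0.838 RPKM. MYO1C had the smallest coefficient of variation of the 49 genes, 2.95%, with a lowest, median and highest level of 381, 397 and 416 CPM. MYO1E ran from 62.0 CPM in replicate 8 through 90.3 to 101 CPM in replicate 1. MYO1H, MYO1A and MYO1G were not detected, with means from 0.0904 to 0.307 CPM.

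Of the 17 other unconventional myosins, 11 were detected. The 3 highest were MYO9B, a motor that carries a GTPase-activating domain, with 28.5 ± 2.26 RPKM, MYO19, a motor on mitochondria, with 25.8 ± 1.85 RPKM, and MYO10, a motor of filopodia, with 19.9 ± 4.63 RPKM. Their lowest, median and highest levels were 184, 219 and 243 CPM for MYO9B, 88.2, 104 and 108 CPM for MYO19 and 146, 252 and 277 CPM for MYO10. MYO19 overlaps ZNHIT3, so its reads may be shared. MYO6, which moves toward the minus end of filaments, had 13.2 RPKM and MYO5A, a carrier of vesicles, 12.3 RPKM. MYO18A had 4.26, MYO5C 3.03, MYO9A 2.65, MYO7B 0.921, MYO5B 0.688 and MYO15B 0.599 RPKM. MYO3B, MYO15A, MYO7A, MYO18B, MYO16 and MYO3A were not detected, with means from 0.0150 to 0.718 CPM.

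MYO5A exceeded MYO5B by 3.89 ± 0.48 (log2) and the log2 ratio of MYO9A to MYO9B was -3.78 ± 1.27, each with 1 direction in 8 of 8 libraries (exact permutation p = 0.00781). MYO5A was at 179, 81.3, 208, 186, 171, 187, 105 and 76.4 CPM in replicates 1 to 8, with replicates 8, 2 and 7 lowest. MYO5B had 5.32, 6.65 and 8.26 CPM as lowest, median and highest level.

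Across all genes, variation between libraries was tested in edgeR by the fit of each gene to the dispersion trend, with Benjamini-Hochberg adjustment over the 11980 detected genes. It called 2 of the 49 genes (4.08%), against 4.66% of all detected genes, and 6 of 49 (12.2%) at an unadjusted p under 0.05 against 13.1%. The genes called were MYO9A (edgeR adjusted p = 2.56e-13) and TPM2 (edgeR adjusted p = 0.0301). MYO9A, a myosin with a GTPase-activating domain (chromosome 15, 72118361 to 72410440, minus strand, 42 exons), was at 51.2, 7.49, 51.7, 47.6, 39.6, 47.8, 15.5 and 4.00 CPM in replicates 1 to 8. Replicates 8, 2 and 7 were lowest and far from the other 5, and the highest level was 12.9 times the lowest. SENP8 overlaps MYO9A, so some of these reads may be shared. MYLK, MYO5A, MYL9 and PFN1 had edgeR adjusted p of 0.0628, 0.108, 0.220 and 0.372, and none of the 4 passed. With the DESeq2 trend in place of edgeR's, 13 of the 49 were called, against 23.5% of all detected genes. A single library lay far from the other 7 in 1 of the 49 genes, MYH11, against 2.86% of all detected genes.

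Both calls were lost without replicates 2, 7 and 8. Without these 3 libraries 0 of the 49 genes were called (2.42% of all), with MYH7B and MYL9 at an unadjusted p under 0.05. The SD of the log2 level fell from 1.44 to 0.15 for MYO9A, from 0.64 to 0.09 for TPM2 and from 0.64 to 0.07 for MYLK. Leaving out 1 library at a time kept MYO9A called each time (edgeR adjusted p from 4.7e-12 to 7.76e-10). TPM2 was lost without replicate 2, 3, 4, 5, 6 or 8, with edgeR adjusted p of up to 0.147, in fits that called 3.15% to 3.65% of all genes.

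**Figure D3:**
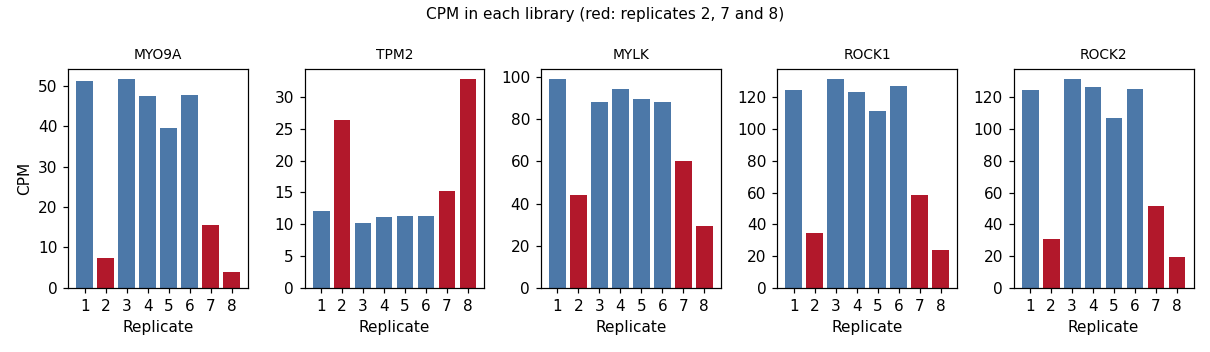
CPM in replicates 1 to 8 (bars from 0) of MYO9A, TPM2, MYLK and the kinases ROCK1 and ROCK2, with replicates 2, 7 and 8 in red. MYO9A fell to 4.00 CPM in replicate 8, where TPM2 was at its highest, 32.8 CPM.

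The direction in which a gene moved in those 3 libraries tended to go with its transcript length, least so in replicate 7. In replicate 7 some genes with transcripts over 7000 nucleotides, such as MYH9 and FLNA, were at their highest level. Of the 12 genes with transcripts under 2000 nucleotides, 10 were highest in replicate 8 (83.3%), against 72.7% of all such detected genes, and MYL2 and TPM1 were the exceptions. Of the 17 genes over 7000 nucleotides, 14 were lowest in replicate 8 (82.4%), against 69.9% of all such genes, and MYO15B, SPTAN1 and TPM3 were the exceptions. Over the 49 genes, Spearman's coefficient between length and the deviation of a library from the mean was -0.75 in replicate 8, -0.60 in replicate 2 and -0.48 in replicate 7. It was positive in replicates 1, 3, 4, 5 and 6, from 0.48 to 0.77. The same values over 11636 genes were -0.65, -0.59 and -0.47, and 0.45 to 0.66. Genes are not replicates and share their libraries, so these values describe the libraries. In the authors' CQN values, which adjust for length and GC content, the coefficient over the 49 genes was -0.14 in replicate 8.

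**Figure D4:**
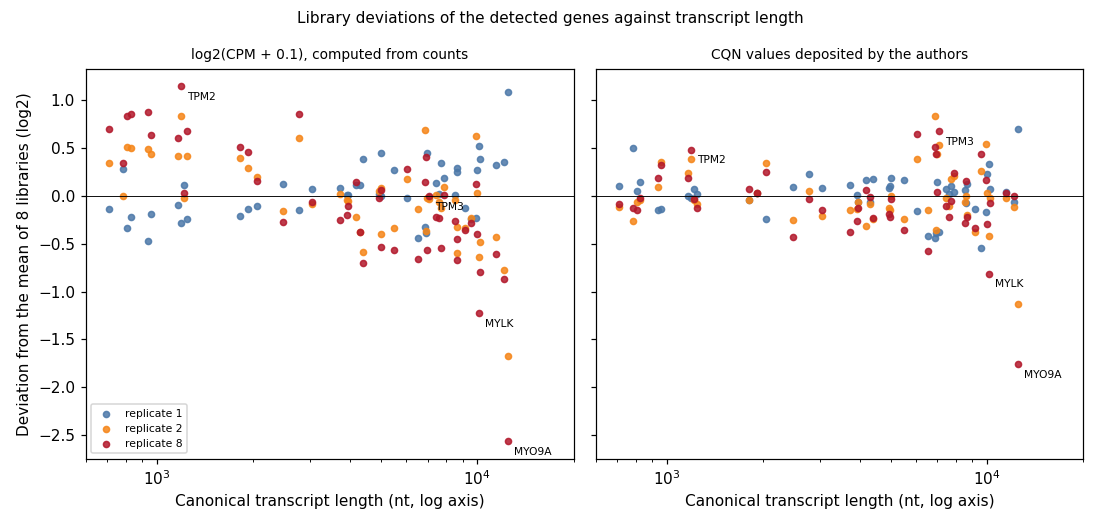
Deviation of replicates 1, 2 and 8 from the mean of 8 libraries (log2) against transcript length (log axis) for detected genes, on CPM (left) and on CQN values (right). The slope seen on the left for replicate 8 (Spearman's coefficient -0.75) is small on the right (-0.14), where MYO9A still lies at -1.76.

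MYO9A remained apart after length was taken into account. Its transcript of 12478 nucleotides was the longest of the 49, and the length trend over all genes put replicate 8 at -0.72 (log2). MYO9A lay at -2.56 there, 1.84 below the trend, which is the 0.232 percentile of all genes. Its CQN deviation in replicate 8 was -1.76. When the length trend was entered as an offset in the edgeR fit, MYO9A kept its call (edgeR adjusted p = 1e-11) and TPM2 lost it (edgeR adjusted p = 0.889). MYO15B gained a call (edgeR adjusted p = 0.00867), in a fit that called 5.3% of all genes. RECQL5 overlaps MYO15B, so some of its reads may be shared. MYLK was 0.59 below the trend in replicate 8, at the 8.0 percentile of all genes, with a CQN deviation of -0.81. With the length offset MYLK was not called (edgeR unadjusted p = 0.38). In all, 37 of the 49 genes lay within 0.5 (log2) of the trend in replicate 8. The share of all genes within this distance was not taken, so the count shows nothing particular to the set.

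The genes that control these proteins were nearly all detected. Of 18 genes for small GTPase signalling and control of the light chain, 18 were detected and 2 were called above the trend, against 51.3% detected among all genes and 4.66% called among those detected. The small GTPases RHOA, RHOC and RHOB led with 508, 358 and 226 RPKM. The 2 called were kinases that phosphorylate the light chain and its phosphatase: ROCK1 (edgeR adjusted p = 1.26e-05) and ROCK2 (edgeR adjusted p = 1.9e-07). ROCK2 was at 125, 30.5, 131, 126, 107, 125, 51.2 and 19.5 CPM in replicates 1 to 8. Like MYO9A and MYLK, both kinases were lowest in replicates 8, 2 and 7, and both kept their call with the length offset (edgeR adjusted p = 0.000388 and 2.7e-07). Without those 3 libraries neither was called, with an edgeR adjusted p of 1 for each.

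Genes for filament assembly and turnover were also nearly all detected, against 51.3% of all genes. Of 17 genes for nucleation of filaments 16 were detected, led by ARPC2, ARPC3 and ARPC1B of the Arp2/3 complex at 288, 283 and 205 RPKM, and WASF3 was not detected. Of 18 genes for turnover and capping 18 were detected. The thymosins TMSB10 and TMSB4X, which hold actin as monomers, had 2983 and 2804 RPKM, and CAP1 had 217 RPKM. None of these 34 genes was called above the trend, against 4.66% of all detected genes. The other cross-linkers and anchors were detected for 8 of 12, with PLS3 at 154 and FSCN1 at 114 RPKM, while LCP1, ACTN2, ACTN3 and VIL1 were not detected.

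Serum response factor and its actin-sensing cofactors, which drive many cytoskeletal genes, were all detected: SRF at 21.1, MKL1 at 12.3 and MKL2 at 10.1 RPKM. The promoters of the set were therefore searched for the CArG box, the motif this factor binds. The window ran from 250 bases before to 50 bases after the start given for each gene in the RefSeq table (GRCh38.p14). The motif follows the same rule on both strands, so a single search covers both. Of the 73 genes 59 had an entry, and 6 of them held a box (10.2%), against 351 of 27305 promoters in the table (1.29%). Entries not found included those of ACTB, MYH11, MYH16, MYH3, MYH7, MYH7B, MYL10, MYL2, MYL4, MYL9, MYO18B, MYO7A and PFN2. A match describes the letters only. The starts were not matched to the canonical transcripts used for RPKM, so a box need not lie before the start of that transcript. For MYLK in particular, the window was not shown to lie before its long transcript rather than inside the gene. The 5 boxes of detected genes are shown, in capitals, with the bases around them in GRCh38.p14, because they are the stretches that carry the motif.
ACTG1 (chr17:81512859-81512918, minus strand): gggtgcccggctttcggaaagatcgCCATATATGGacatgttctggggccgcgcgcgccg
FLNA (chrX:154374694-154374753, minus strand): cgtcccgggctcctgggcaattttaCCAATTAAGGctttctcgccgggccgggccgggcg
TPM4 (chr19:16067340-16067399, plus strand): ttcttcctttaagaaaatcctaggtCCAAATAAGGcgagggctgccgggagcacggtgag
MYLK (chr3:123620608-123620667, minus strand): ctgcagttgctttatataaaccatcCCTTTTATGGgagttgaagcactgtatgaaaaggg
MYO1E (chr15:59372872-59372927, minus strand): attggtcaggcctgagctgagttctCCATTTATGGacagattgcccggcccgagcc
The sixth box lies in the promoter of MYL7, which was not detected. The genes with a box did not follow the libraries in 1 way. ACTG1 was highest in replicate 8, while FLNA, TPM4, MYLK and MYO1E were all lowest there. ACTG1 has a transcript under 2000 nucleotides, and 72.7% of all such detected genes were highest in replicate 8. FLNA, MYLK and MYO1E have canonical transcripts over 7000 nucleotides, and 69.9% of all such genes were lowest there. Whether the MYLK box belongs to that transcript was not tested. TPM4, at 2474 nucleotides, lies between these classes.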

How the data were processed

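Polyadenylated RNA of 8 hCMEC/D3 replicates was sequenced after TruSeq v2 library preparation, per the labels' protocols. CASAVA 1.9, TopHat2 2.0.6, HTSeq and hg19 are named in the submitters' processing notes, with no roles. Use of strand and the gene annotation are not given in the sources used here. The authors deposited raw gene counts and CQN values, taken from their range to be on a log2 scale, in 1 table.

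CPM used TMM library sizes (edgeR 4.0.16, R 4.3.3). Genes with at least 1 CPM in every library were called detected. RPKM used canonical transcript lengths from GENCODE 44 lifted to GRCh37 (97.1% of detected genes had a length). Where no canonical transcript was tagged, the longest was taken. Table starts were read as counting from 0 and are printed from 1. Variation was tested with an intercept-only edgeR model and its goodness-of-fit test, adjusted p under 0.05. On simulated counts 0 of 11823 genes were called with none changed. Of 196 genes raised 4-fold in 1 library, 169 (86.2%) were recovered among 11829. The simulated counts were drawn from the same trend that the test uses, so few calls with none changed were built in. A change shared by several libraries was not simulated, so the recovery does not apply to such changes. Pairs were tested over the 256 sign patterns of 8 libraries. The length trend was a lowess curve over detected genes.

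The genes, lists, pairs and tests were chosen with earlier results of these data known. All detected genes of the set were named. Lowest, median and highest levels were given for the 3 highest per role, those called variable and those in pairs. The alternatives were DESeq2 1.42.0 size factors and trend, no filter, halved counts, each library left out, replicates 2, 7 and 8 left out, other detection limits, other lengths, a pseudocount of 1 and CQN values. A few genes are not reported here. Coding starts came from GENCODE 44 and promoters from RefSeq.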

Additional observations from a re-analysis of the deposited data

Results flagged for a closer look

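MYH11 was at 4.23 CPM in replicate 2, and the other 7 libraries ranged from 2.05 to 2.89 CPM. The gap to the next library took 0.618 of the whole range, above the limit of 0.526 for 8 values. It was the only 1 of the 49 detected genes with a library so far from the rest (2.04%), against 2.86% of all detected genes. For normally spread values, the limit is one that chance passes in about 1 of 20 groups.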

How the results depend on the processing

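The count of 49 detected genes was 40 at 5 CPM, 50 at 1 CPM in any library, 56 at 10 counts and 49 under the other alternatives run. The number of genes called variable (2 of 49) was 13 with the DESeq2 trend (23.5% of all genes), 0 without replicates 2, 7 and 8 together and 1 to 2 with 1 library left out. It was 2 with DESeq2 size factors, no filter, halved counts or length offsets, the last with MYO15B in place of TPM2. The share of counts was 2.758% to 2.828% with 1 library left out. Of the 18 pair ratios, 17 to 18 passed with 1 library left out, 16 on CPM, 17 in CQN values and 17 per merged exon length. The counts on the last 3 scales include pairs that passed in the opposite direction. Direction and call both held for 14 on CPM, 15 in CQN values and 14 per merged exon length. The pairs that reversed were ACTN1 over ACTN4 (-0.0725 on CPM, -0.0406 in CQN values, -1.30 per merged exon length), TPM1 over TPM4 (-0.50, -0.57 and -0.74) and MYL12A over MYL12B (-0.20, -0.20 and -0.999). The last lost its call without replicate 2, 3, 4, 5, 6 or 8. With replicates 2, 7 and 8 left out no pair changed direction, and the exact test of 5 libraries cannot pass. In CQN values the length relation moved to -0.0467, -0.036, 0.119, 0.00357, 0.104, -0.00469, 0.213 and -0.136 in replicates 1 to 8. At 0.5 CPM, 2 muscle actins were detected. SDs on CQN values, an alternative chosen after seeing the data, were 0.97 for MYO9A, 0.28 for TPM2 and 0.41 for MYLK. Where a value changed, the cause was not tested. No paired analysis was possible because the libraries form 1 group. Counting error limits only genes near 0, and RPKM depends on the transcript chosen.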

Other observations

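MPRIP, which brings the myosin phosphatase to filaments, had 305 ± 29.3 CPM and MYLIP 10.2 ± 4.16 CPM, while PFN3, PFN4 and MYLPF were not detected. Neither MPRIP nor MYLIP was called above the trend by edgeR.

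TTN, titin of striated muscle, was at 21.6 ± 8.84 CPM but only 0.198 RPKM, since its transcript holds 109224 nucleotides. It was lowest in replicate 2 at 11.5 CPM and highest in replicate 3 at 33.8 CPM, and it did not pass the variation test (edgeR adjusted p = 0.0657). Of pericyte markers, RGS5 and PDGFRB were detected at 14.4 and 9.57 CPM, while NOTCH3 and KCNJ8 were at 0.508 and 0.0271 CPM. Of blood markers only MYO1F was detected, with PTPRC, MYO1G and CD3E below the limit.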
